A study of Mus musculus with 16 samples.

Results

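Very long protein-coding genes, those whose longest annotated transcript covers 300000 bp or more of the mouse genome, were examined in the gene annotation deposited with a sequencing study of mouse spleen RNA. A gene was taken when all of its coding segments lay on 1 chromosome and strand, and its span ran from the first to the last exon base of its longest single transcript. By this rule 487 of 20411 coding genes were very long, which is 2.39% of coding genes. The study measured polyadenylated RNA in 16 spleen samples of untreated mice, in 4 groups of 4. These were wild-type mice of study code NG66, wild-type mice of study code NG108, Triple KO mice (Zfp36-/-, TNFR1-/-, TNFR2-/-) and Double KO mice (TNFR1-/-, TNFR2-/-), so both knockout groups lacked the TNF receptors. The sample titles give the study code NG66 for both knockout groups. Strain, age and the promoter or construct behind each allele are not given in the labels. The file used here lists gene models on mm10 and no value for any sample, so genes are the units below, no replicate error exists, no comparison between genotypes was made and depth per sample is unknown.

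A gene's span is made of exons, which are kept in the mature mRNA, and introns, which are transcribed and then spliced out. RNA polymerase must copy the whole span to make 1 transcript, so the span sets how long a full transcript takes to appear. Very long genes are known best from neurons, where many encode adhesion proteins, receptors and ion channels of synapses, and several lie at common fragile sites, stretches of chromosomes that break when DNA replication is slowed. Reads from polyadenylated RNA come mostly from exons, so the exonic and coding lengths, rather than the span, set how much sequence such a gene offers to a count.

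Splicing joins coding bases that lie up to 996.0 kb apart in these genes. The joins below are shown because they cross some of the longest introns of the set, the longest of all among them, and each gives 15 coding bases on either side, with the bases after the intron in capitals. They were read, 5′ to 3′ on the gene's strand, from GENCODE M21 transcripts (GRCm38, the assembly of mm10) that use the same intron.
Accn1, exons 1 and 2, minus strand, intron chr11:80971615-81967629: caagacttcaccacaGTGTTTACAAAATAT
Kcnip4, exons 1 and 2, minus strand, intron chr5:48482656-49285252: gttctcttcatacagACAGCGTGGAAGATG
Gpc5, exons 7 and 8, plus strand, intron chr14:115788333-116524279: tgaagatcacaaactGGATGCCAGACAGCA
Hs6st3, exons 1 and 2, plus strand, intron chr14:119139119-119868885: ccacagccacaccagGAATTTCTACTACAT
Pde4d, exons 3 and 4, plus strand, intron chr13:109032698-109740386: tgcagactcaagtggTTTCGATGTGGACAA
Wwox, exons 8 and 9, plus strand, intron chr8:114712252-115351637: ttcaccaagtccatgCAACAGGGAGCTGCT
Opcml, exons 1 and 2, plus strand, intron chr9:27791447-28404327: tgctcttcatcccagGAGTGCCGGTGCGCA
Cntnap2, exons 1 and 2, plus strand, intron chr6:45060387-45653993: ctccctccacgttccAAAAATGTGATGAGC

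Accn1 encodes an acid-sensing sodium channel, and its first intron of 996.0 kb made up 91.5% of its span. Kcnip4, a potassium channel interacting protein, had a first intron of 803 kb. The intron of Gpc5, a cell-surface heparan sulphate proteoglycan, was 736 kb and was the last of its 7. Hs6st3, a heparan sulphate sulfotransferase, had 2 exons parted by 729.8 kb. Pde4d, a cAMP phosphodiesterase, had an intron of 708 kb after exon 3, Wwox, an oxidoreductase with WW domains, of 639 kb before its last exon, and Opcml, a GPI-anchored neural adhesion protein, of 613 kb. The introns of Accn1 and Wwox fell between codons (phase 0), those of Kcnip4, Gpc5, Opcml and Cntnap2 after the first base of a codon (phase 1), and those of Hs6st3 and Pde4d after the second base (phase 2).

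Several introns of these genes also carry microRNAs, short RNAs that pair with target mRNAs mainly through the seed, bases 2 to 8. The annotation placed 40 microRNA genes inside 34 very long genes, of which 29 were on the strand of the host, each within a single intron. Hosts were 6.98% of very long genes, against 1.12% of coding genes under 300000 bp. Per Mb of span, however, very long genes held fewer microRNA genes, 0.150 against 0.410 in coding genes under 300000 bp. RefSeq sequences (GRCm38.p6) were matched for 26 of the 40. The mature forms below are shown for hosts that also appear among the results, with the seed in capitals.
miR-218-5p, in Slit2 and in Slit3: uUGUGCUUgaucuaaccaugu
miR-218-1-3p, in Slit2: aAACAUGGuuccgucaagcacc
miR-218-2-3p, in Slit3: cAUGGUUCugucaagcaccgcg
miR-582-5p, in Pde4d: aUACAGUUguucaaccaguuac
miR-1904, in Pde4d: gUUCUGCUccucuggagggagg
miR-204-5p, in Trpm3: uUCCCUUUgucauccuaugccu
miR-153-3p, in Ptprn2: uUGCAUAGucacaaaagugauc
miR-346-5p, in Grid1: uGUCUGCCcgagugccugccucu
miR-592-5p, in Grm8: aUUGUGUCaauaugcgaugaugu
miR-708-5p, in Odz4: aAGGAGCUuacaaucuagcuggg
miR-876-5p, in Lingo2: uGGAUUUCucugugaaucacua

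The paralogues Slit2 and Slit3, which encode secreted axon guidance ligands, carried the same miR-218-5p in the same place, intron 14 of 35. Slit2 spanned 323 kb on chromosome 5 and Slit3 587 kb on chromosome 11, both with 36 exons. Their coding lengths differed by 6 bases (4563 and 4569 bases, the stop codon not counted), and in both the longest intron was intron 4, with 169.8 and 273 kb. The 5p arms of the copies were identical, and the 3p arms had different seeds. Every other seed occurred in 1 of the same-strand mature forms read. Pde4d was the host of both Mir582 (intron 3) and Mir1904 (intron 8), and Lingo2 of both Mir873 and Mir876 (intron 2). The 3 symbols Mir467a-3, Mir467a-6 and Mir467a-10 in intron 5 of Dgkb had the same coordinates, so they are 1 place in the genome.

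Spans ran from 300557 bp to 2256 kb, with a median of 438 kb and an interquartile range of 355 to 599 kb. The median span of the 19924 other coding genes was 15.8 kb (5.41 to 40.2 kb). Above 500 kb there were 183 genes and above 1000 kb 44. Just inside the limit were Ranbp17 (301953 bp), Cntn3 (301362 bp) and Jazf1 (300557 bp), and just outside it Akap13 (299076 bp), Nxph1 (298560 bp) and AW554918 (298302 bp). The genotype genes of the study were far shorter. Tnfrsf1b (TNFR2) spanned 34503 bp, Tnfrsf1a (TNFR1) 12761 bp and Zfp36, which encodes the mRNA decay factor tristetraprolin, 2445 bp, placing Zfp36 at rank 17735 of 20411 by span.

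**Figure D1:**
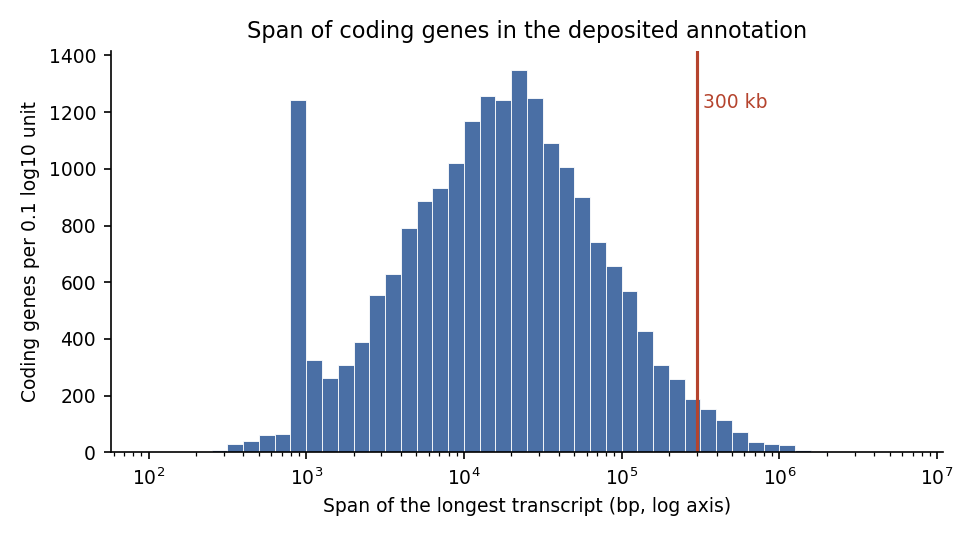
Number of coding genes by span of the longest transcript, in bins of 0.1 log10 unit on a log axis in bp, with a line at 300 kb. The 487 genes right of the line form the upper tail of a distribution whose median is 16.6 kb over all 20411 coding genes.

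The longest gene was Dmd, which encodes dystrophin, the protein that links the muscle cell cytoskeleton to the membrane. It lay at chrX:82948870-85205050, spanned 2256 kb and had 79 exons and 11034 coding bases, and 6 of its introns were 100 kb or longer. Cntnap2, a neurexin-like adhesion protein of axons, followed with 2241 kb (chr6:45060061-47301371) and 24 exons. Lrp1b, an endocytic receptor of the LDL receptor family, spanned 2057 kb (chr2:40596773-42653598) in 91 exons. Macrod2, an ADP-ribosylhydrolase, spanned 1995 kb (chr2:140395430-142390050) in 19 exons.

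The next 6 ranked genes lay between 1478 and 1643 kb. Csmd1, a membrane protein with complement-control domains, spanned 1643 kb on chromosome 8 in 70 exons. Nrxn3, a presynaptic adhesion receptor, spanned 1612 kb on chromosome 12 in 21 exons. Fhit, a dinucleotide hydrolase at a classic fragile site, also spanned 1612 kb, on chromosome 14, with 9 exons and 450 coding bases. Ctnna3, an alpha-catenin, spanned 1574 kb in 18 exons, Rbfox1, a neuronal splicing regulator, 1528 kb in 17, and Magi2, a synaptic scaffold, 1478 kb in 23. Exon number among these 10 genes thus ran from 9 to 91 without following the order of span.

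**Figure D2:**
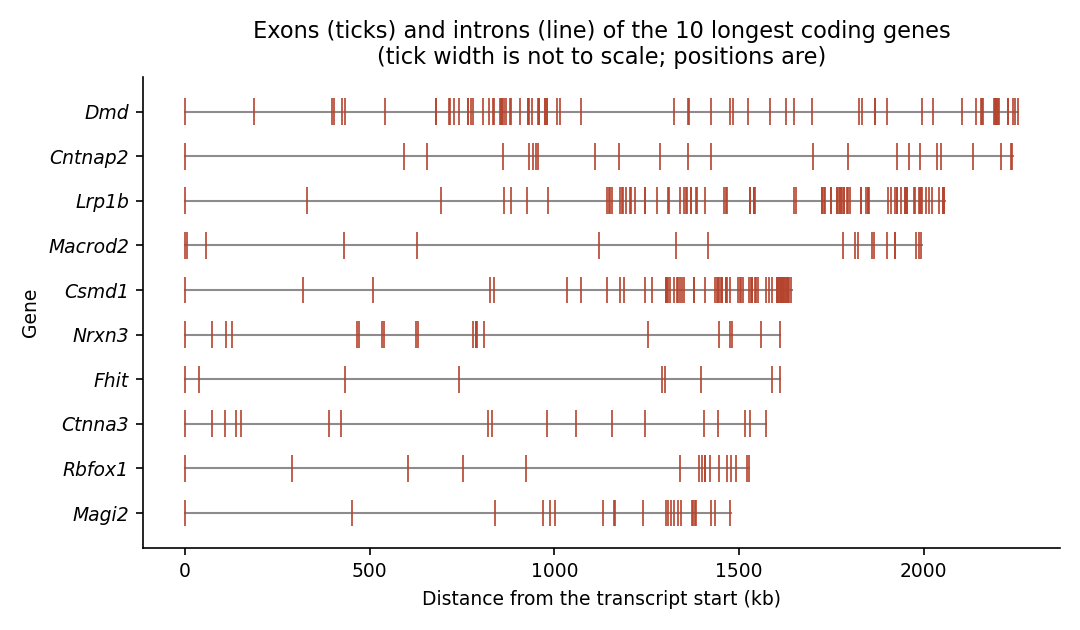
Exon positions (ticks) along the span (line) of the 10 longest coding genes, in kb from the transcript start, with tick widths not to scale. Dmd, Lrp1b and Csmd1 have 79, 91 and 70 exons in clusters, while Fhit spreads 9 exons over 1612 kb.

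Very long genes had more exons and longer coding sequences than other genes, but by far less than the ratio of their spans. Their median exon number was 17 (interquartile range 10 to 26) against 7 (4 to 13) in coding genes under 300 kb. Median coding length was 2721 bases (1619 to 3999) against 1185 (801 to 1927), and the median total exon length was 4973 against 2323 bases. The length of internal exons was close in both sets, with medians of 129 and 126 bases. These are descriptions of an annotation, and no test was made because genes are not replicates of a condition.

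Over classes of increasing span, exon number and coding length rose up to the class of 100 to 300 kb and little after that, while introns went on lengthening. Median exon number was 13 in genes of 30 to 100 kb, 16 in 1715 genes of 100 to 300 kb, 16.5 at 300 to 500 kb, 17 at 500 to 1000 kb and 18 above. Median coding length was 2412 bases at 100 to 300 kb, 2708 at 300 to 500 kb, 2775 at 500 to 1000 kb and 2621 above 1000 kb. The typical intron, taken as the median of each gene's own median, was 3400 bp (3399.5 bp) at 100 to 300 kb, 7482 bp at 300 to 500 kb, 11651 bp at 500 to 1000 kb and 33107 bp in genes above 1000 kb. Introns are part of the span, so their growth with it is built into the classes, and the flat exon number and coding length above 100 kb are not.

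**Figure D3:**
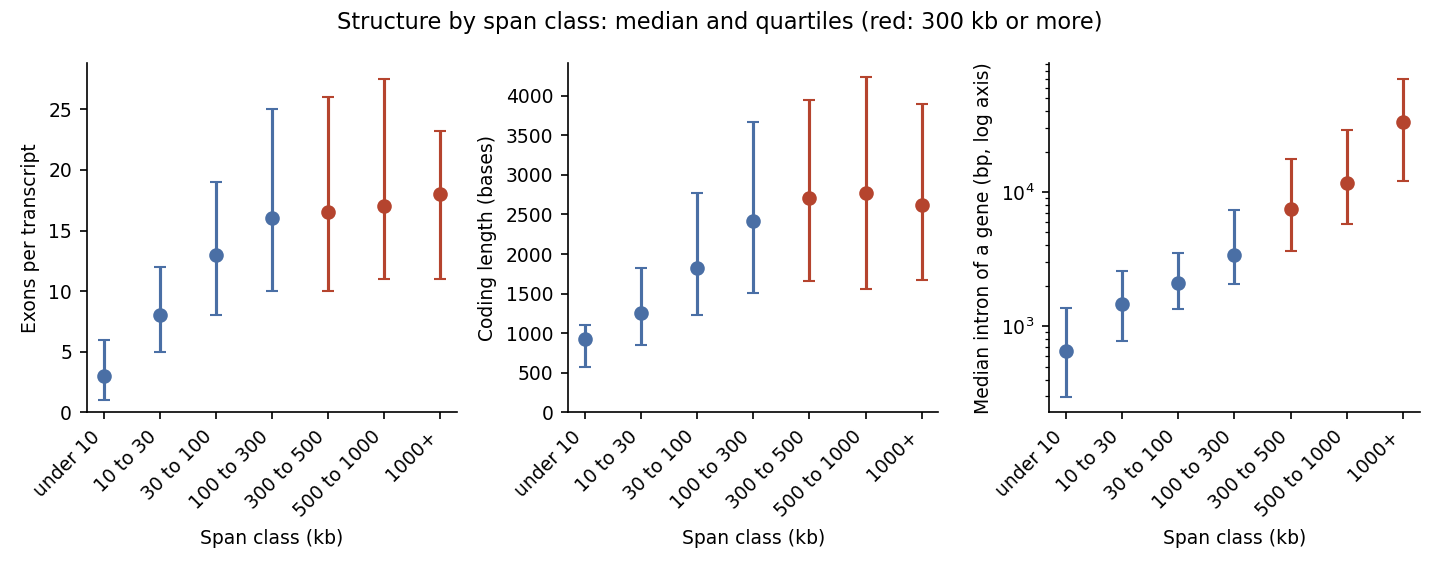
Exons per transcript, coding length in bases and the median intron of a gene in bp (log axis) in 7 classes of span in kb, with points for medians and bars for quartiles, and genes of 300 kb or more in red. Median exon number moves from 16 to 18 over the last 4 classes, while the median intron moves from 3400 to 33107 bp.

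Introns filled a median of 99.0% of a very long gene, against 85.1% of other genes, and coding bases 0.572% against 7.91%. The 487 genes held 28.6% of the genome under coding genes, 265 of 926 Mb, but 5.01% of coding bases and 5.59% of introns. Of 1002 introns of 100 kb or more in the transcripts examined, 700 were in very long genes, and 388 of the 487 genes had at least 1. The other 99 reached 300 kb with shorter introns. Both the intron share and the longest intron follow in part from the rule.

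The longest intron made up a median of 33.5% of the span in very long genes (23.6 to 48.1%) and 32.1% in others (19.7 to 47.8%), or 34.8% in the 17837 others that had an intron. Over the span classes the median share fell from 37.3% at 100 to 300 kb to 35.1% at 300 to 500 kb, 30.3% at 500 to 1000 kb and 27.0% above 1000 kb. The median length of the longest intron was 160.3 kb against 5.25 kb. At the upper extreme, Hs6st3, Hs3st4 (both heparan sulphate sulfotransferases) and Gm13152 had 99.8, 99.3 and 99.2% of the span in 1 intron, and Hs6st3, Hs3st4 and the potassium channel gene Kcnb2 had 2 exons, the fewest of the set. Gm13152 spanned only 21.1 kb in GENCODE M21, against 338 kb here, so its intron rests on the deposited model alone. At the lower extreme were 3 axonemal dynein heavy chains, motor proteins of cilia. Their longest introns were 19.5 kb in Dnahc9 (69 exons), 20.1 kb in Dnahc11 (82 exons) and 21.1 kb in Dnahc7a (66 exons), or 5.77, 6.26 and 6.83% of the span.

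The most exons belonged to Hmcn1 (107), an extracellular matrix protein, and to the calcium release channel genes Ryr2 (105) and Ryr3 (104). The longest coding sequences were those of the cytoskeletal linker Macf1 (22065 bases in 335 kb), the adhesion receptor Gpr98 (18894 bases in 538 kb) and Hmcn1 (16902 bases in 431 kb). The shortest were those of Immp2l (286 bases in 327 kb and 3 exons), a mitochondrial inner membrane peptidase subunit, and of Fam19a1 and Fam19a2 (399 and 405 bases in 544 and 477 kb), small secreted proteins. The 286 bases of Immp2l are not a whole number of codons, and the gene spanned 931 kb in GENCODE M21. They may therefore not be its full coding sequence. Immp2l was not alone in this, as the coding lengths of Auts2 (3782 bases), Pcdh15 (5041 bases) and Cdh23 (10057 bases) were not whole numbers of codons either.

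The longest intron lay near the 5′ end about as often in very long genes as in others. Among genes with 3 or more introns it was the first or second in 269 of 478 very long genes, 56.3% (95% exact binomial interval 51.7 to 60.8%), against 58.4% of 15070 others. It was the first in 36.0 against 40.9%, the second in 20.3 against 17.5% and the last in 4.60 against 8.67%. By span class, the share first or second was 55.5% under 10 kb, 55.4% at 10 to 30 kb and 61.9% at 30 to 100 kb. It was 64.4% at 100 to 300 kb, 56.0% at 300 to 500 kb, 55.9% at 500 to 1000 kb and 59.1% above. The intervals cover counting error only, and these differences were not tested. Examples at the first intron were Cntnap2 (594 kb) and Magi2 (451 kb), while the longest introns of Dmd (249.5 kb) and Nrxn3 (443 kb) were introns 44 and 15.

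**Figure D4:**
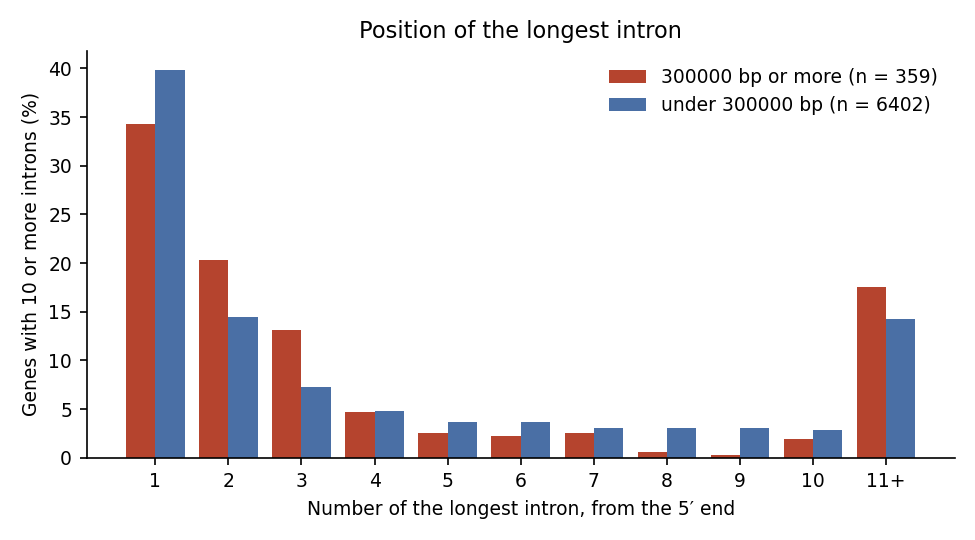
Share (%) of genes with 10 or more introns whose longest intron is intron 1, 2, 3 and so on from the 5′ end, for 359 genes of 300 kb or more and 6402 shorter genes. Introns 1, 2 and 3 hold the longest intron in 34.3, 20.3 and 13.1% of very long genes and in 39.8, 14.4 and 7.23% of the others.

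The longest intron interrupted the coding sequence in 417 of the 487 genes (85.6%) and lay in the 5′ UTR in 70 (14.4%), against 79.5 and 19.7% in shorter genes. Among the 417, 44.1% fell after the first base of a codon (phase 1) and 14.1% after the second (phase 2). The other 9265 coding introns of the same genes had 34.8% in phase 1 and 21.3% in phase 2. In shorter genes the longest coding introns had 36.5 and 20.8%. Phase 1 introns flank many extracellular domains, such as immunoglobulin and EGF-like modules. Introns of 1 gene are not independent, and the phase difference was not tested.

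Bases around the longest introns were read for 478 of 486 different introns of the set. The exon ended in AG before the intron in 56.5% (95% exact binomial interval 51.9 to 61.0%), against 56.8% for the longest introns of shorter genes and 57.7% for the other introns of very long genes. The next exon began with G in 44.4% (39.8 to 48.9%), against 49.5 and 47.8%. AG followed by G across the join, on the strand of the gene, was present in 23.8% (20.1 to 27.9%), against 28.2 and 28.0%. The share with AG was thus close in all 3 sets, while both shares that include G were lower at the longest introns of very long genes. Introns of 1 gene are not independent, and these differences were not tested.

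The distance from the transcript start to the start codon was uneven. Its median was 416 bp (142 bp to 26.4 kb), but in 80 of 487 genes (16.4%) it was 100 kb or more, against 101 of 19870 shorter genes (0.508%). In Lingo2, a leucine-rich-repeat neural membrane protein, 1242 kb or 99.7% of the span came before the start codon. It was 482 kb of 484 kb in Chrm3, a muscarinic acetylcholine receptor, 697 kb of 709.98 kb in Mgat4c, a glycosyltransferase, and 924 kb of 1528 kb in Rbfox1. Genes under 100 kb cannot hold such a distance, so both shares are tied to the span.

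More very long genes had several annotated transcripts. There were 2 or more in 193 of 487, 39.6%, against 19.2% of all coding genes and 18.8% of shorter ones, although the median was 1 in both. The share was higher in each class of longer span, 25.4% at 30 to 100 kb, 31.4% at 100 to 300 kb, 36.8% at 300 to 500 kb, 42.4% at 500 to 1000 kb and 50% above 1000 kb. Among genes with 10 to 26 exons the shares were 48.5% of 266 very long genes and 26.7% of 6316 others. Different start sites were annotated in 20.1 against 8.85%, and different proteins in 36.3 against 13.9%. The span is that of the longest transcript, so each further transcript is another chance of a longer span. These shares are therefore tied in part to the rule, and the differences were not tested.

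Kcnma1, the large-conductance calcium-activated potassium channel, had 22 transcripts with 22 protein forms from 1 start site in 706 kb. Pcdh15, a protocadherin of hair cells, had 14 from 1 start site, and Cacna1c, a voltage-gated calcium channel, 10 from 2. Dmd had only 1 transcript in this annotation. In 14 of the 193 genes the shortest transcript covered under 10% of the longest span, against 30 of 3736 shorter genes with several transcripts. In Cntnap2 it covered 57.0 kb of 2241 kb, in Macrod2 27.5 kb of 1995 kb, and in Pde4b, a cAMP phosphodiesterase with 5 transcripts from 5 start sites, 17.4 kb of 352 kb. The share under 10% depends on the longest span, so it is also tied in part to the rule.

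Other genes lay wholly inside 131 of the 487 spans, 26.9%, against 4.31% of all coding genes. A longer span can hold more genes, and per Mb of span very long genes held fewer, 0.863 against 1.78 in genes of 100 to 300 kb. By type of enclosed gene the rates were 0.424 against 1.14 for coding genes, 0.150 against 0.296 for microRNA genes and 0.289 against 0.346 for other genes. Very long genes held 230 in all, of which 113 coded for protein, and 195 of the 230 touched no exon of the host transcript. A gene inside overlapping hosts was counted for each. The hosts with the most were Pcdha4-g (34 genes), Klra22 (16) and Klra15 (15). Without these 3 hosts the count was 165 genes, 0.623 per Mb, of which 50 coded for protein, and the share on the host's strand was 35.2% in place of 52.6%. No host was left out of the class of 100 to 300 kb, where 69.4% of enclosed genes were on the host's strand.

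Those 3 hosts were unlike the rest. Pcdha4-g is a 4-exon model of 887 kb whose first intron of 869.9 kb covered the clustered protocadherin genes, and Klra22 and Klra15, natural killer cell receptor genes, shared 930 exon bases with each other over 409 kb. After these the most enclosed genes were in Med12l (6, all on the opposite strand) and Dgkb (4, the microRNA symbols above among them). In 2 further pairs very long genes shared exon bases, Iqcj-schip1 with Schip1 (2013 bases) and LOC100039810 with LOC100041256 on chromosome Y (1214 bases). Joining the 3 pairs left 484 separate loci.

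By function, very long genes were spread unevenly over 34 gene lists set by symbol or symbol pattern, and 185 of the 487 were in at least 1 list. The share of all coding genes, 2.39%, is the value each list is read against, and the median span of all coding genes was 16.6 kb. These shares are descriptions, and no enrichment test was made.

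Neural adhesion genes had high shares in most families. All 4 teneurins, large transmembrane adhesion proteins named Odz in this annotation, were very long, from Odz2 (938 kb) through Odz1 (742 kb) and Odz4 (698 kb) to Odz3 (449 kb). Of the contactins and contactin-associated proteins 9 of 13 were very long, with Cntnap2, Cntn5 (1244 kb) and Cntn4 (1022 kb) at the top and Cntn3 the shortest. Of the neurexins and neuroligins, which pair across the synapse, Nrxn3 is described above and Nlgn1 spanned 900.1 kb in 8 exons. Immunoglobulin-superfamily adhesion genes had 12 of 27, led by Opcml (1134 kb), Sdk1 (972 kb), Ntm (967 kb) and Cadm2 (965 kb).

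Cadherins had 6 of 23, led by Cdh13 (1039.7 kb) and Cdh12 (478 kb), and protocadherins 5 of 71, of which Pcdh9 spanned 875 kb in 4 exons. Leucine-rich-repeat synaptic adhesion genes had 1 of 30, Lrfn5 (321 kb), and their median span was 12.7 kb. By GENCODE spans 3 of the 30 reached the limit, with Lrrc4c (164 kb here, 1313 kb there) and Lrrtm4 (6.06 kb here, 791 kb there) added. Axon guidance genes had 14 of 71, led by the netrin receptor Dcc (1097 kb), the ephrin receptor Epha6 (952 kb), Slit3 and Unc5d (573 kb). Receptor-type tyrosine phosphatases had 6 of 22, led by Ptprt (1134 kb), Ptprn2 (792 kb), Ptprg (688 kb) and Ptprm (688 kb).

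Glutamate receptor genes had the highest shares among receptors and channels. Of 19 ionotropic subunits 9 were very long, among them Grid1 (761 kb), Grik2 (689 kb) and Grin2b (444 kb), and of 8 metabotropic receptors 4, among them Grm7 (922 kb), Grm8 (859 kb) and Grm5 (551 kb). Voltage-gated calcium channel genes had 6 of 26, led by Cacna2d3 (817 kb), Cacna1c and Cacna1d (451 kb), and genes named Kcn, which include potassium channel subunits and partners, 11 of 93, led by Kcnip4 (896 kb) and Kcnma1. GABA-A receptor subunits had 2 of 19 (Gabrg3, 663 kb, and Gabrb1, 437 kb), TRP channels 2 of 22 (Trpm3, 851 kb, and Trpc5, 307 kb) and voltage-gated sodium channel genes 0 of 9, although their median span of 111 kb was well above that of all genes.

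Synaptic scaffolds had 10 of 29, with Magi2, Dlg2 (1358 kb), Erc2 (856 kb) and Dlgap2 (752 kb). The list of giant cytoskeletal linkers and ankyrins, which also holds catenins, had 8 of the 17 found of 23 symbols. Its longest were Dmd and the catenins Ctnna3, Ctnna2 (1098 kb) and Ctnnd2 (857 kb). These catenins had 2685, 2859 and 3738 coding bases, against 11034 in Dmd. Splicing and other RNA-binding regulators had 5 of 26, led by Rbfox1 and Celf2 (856 kb). Heparan sulphate proteoglycan and synthesis genes had 7 of 30, Gpc5 (1433 kb) and Gpc6 (1054 kb) first. Phosphodiesterases had 4 of 24 (Pde4d, Pde4b, Pde11a and Pde7b), and protein kinase C and phospholipase C genes 4 of 22 (Plcb1, Prkce, Prkca and Prkcb).

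Several further lists had lower shares. Developmental transcription factors had 10 of 159 (6.29%), led by Rora, Esrrg (606 kb), Sox6 (567 kb) and Foxp2 (541 kb), while zinc finger genes named Zfp had 1 of 336 (0.298%), Zfp407 (382 kb), and 2 of the 335 matched by GENCODE spans. Collagens had 3 of 43 (Col25a1, Col19a1 and Col4a6) and solute carriers 9 of 355 (2.54%), led by Slc9a9 (561 kb). Genes named Adam, which include ADAM and ADAMTS proteases and ADAMTS-like proteins, had 3 of 57 (Adamtsl1, Adam12 and Adamts17). There were 0 very long genes among 1113 olfactory receptors, 61 histones, 93 genes named Rpl or Rps, which include the ribosomal proteins, and 71 chemokines and interleukins. Of genes at common fragile sites 28 of 29 were very long, with a median of 1105 kb, but such genes are known for their length and the list was drawn from that knowledge. The exception was Tsn.

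**Figure D5:**
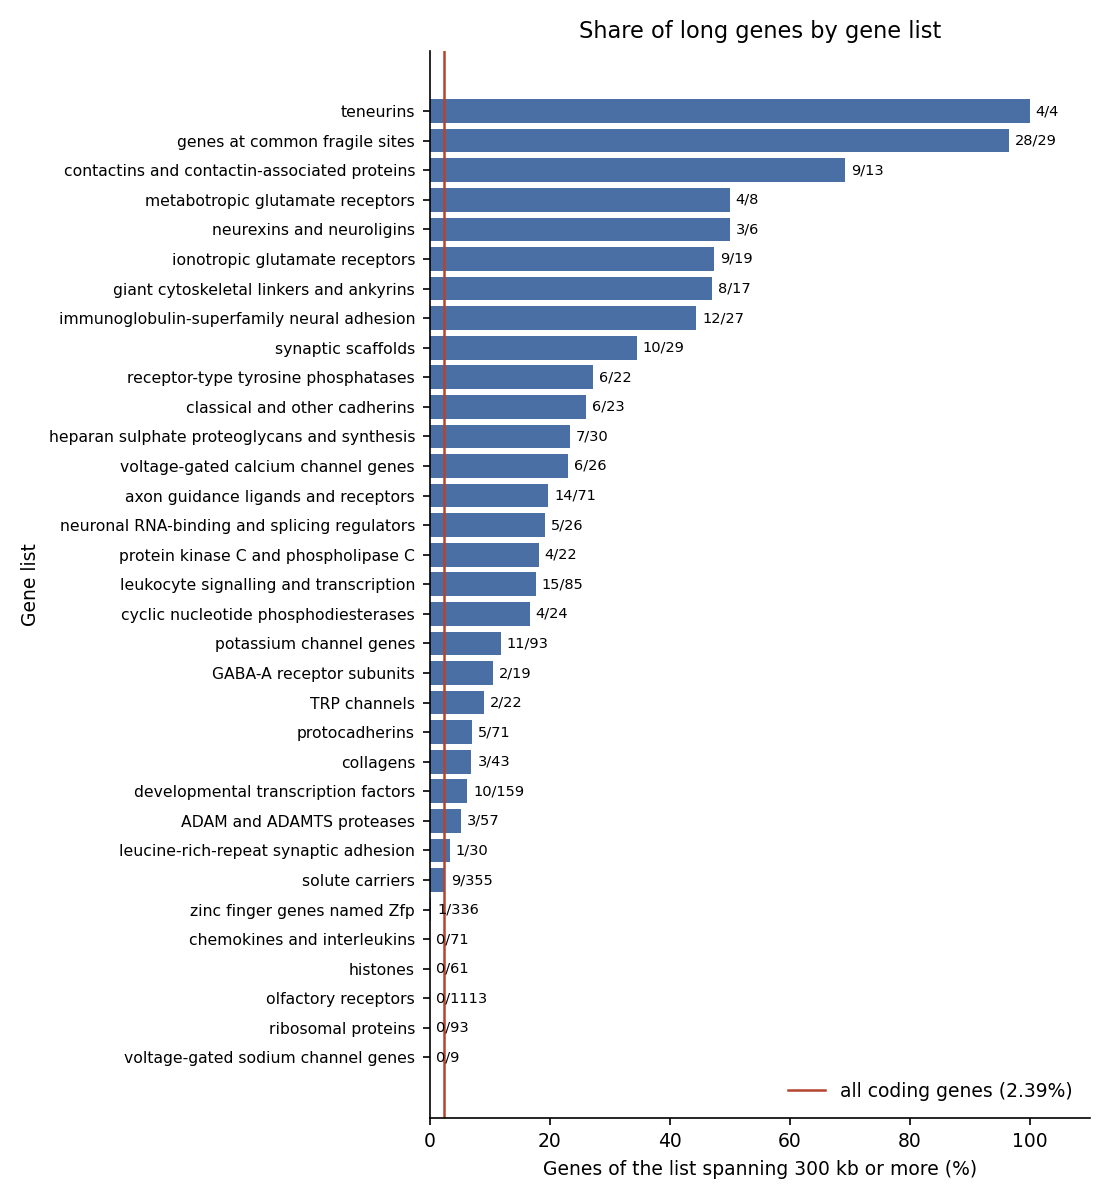
Share (%) of each of 33 gene lists that spans 300 kb or more, with the count of very long genes over genes found beside each bar, and a line at the 2.39% of all coding genes. Teneurins (4 of 4) and genes at common fragile sites (28 of 29) stand highest, and 5 lists have 0.

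In the list closest to the sampled tissue, leukocyte signalling and transcription, 15 of 85 genes found were very long (17.6%), with a list median of 112 kb. This list was drawn up by symbol from general knowledge, with earlier results of these data known, so its share depends on the genes chosen. The signalling genes were Pde4d (1302 kb), Plcb1 (689 kb), a phospholipase C, Arhgap15 (639 kb), a Rac GTPase-activating protein, Elmo1 (518 kb), a partner of Dock exchange factors, Camk1d (421 kb), a calmodulin-dependent kinase, Inpp4b (407 kb), a phosphoinositide phosphatase, Pde4b (352 kb), Prkcb (345 kb), the protein kinase C of B cell receptor signalling, and Vav3 (345 kb), a guanine nucleotide exchange factor. Their exon numbers ran from 11 in Camk1d to 32 in Plcb1.

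The transcriptional regulators were Rora (725 kb, 11 exons), a nuclear receptor, Foxp1 (510.0 kb, 19 exons), a forkhead factor of B and T cells, Aff3 (488 kb, 23 exons), Ebf1 (387 kb, 16 exons), which specifies B cells, Tcf4 (343 kb, 20 exons), an E protein, and Tox (303 kb, 9 exons), a factor of T cell development. In Rora 1 intron of 542 kb took 74.7% of the span, and in Ebf1 1 intron of 226 kb took 58.3%. Foxp1 had 3 transcripts from 3 start sites and its longest intron, 127 kb, in the 5′ UTR. Skap1 (295 kb) and Dock2 (288 kb) were the next longest genes of the list. Expression of these genes in spleen was not analysed here.

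Very long genes lay on every chromosome from 1 to 19 and on X and Y. Chromosome 1 had the most, 46 of 1148 coding genes (4.01%), and chromosome 14 had 29 of 718 (4.04%). Chromosome 7 had 20 of 1909 (1.05%), chromosome 19 had 9 of 683 (1.32%) and chromosome 11 had 21 of 1564 (1.34%). On X there were 22 of 834 (2.64%). The 2 on Y, of 24 coding genes, were the pair that shares exons. The plus strand held 258 of the 487 (53.0%).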

How the data were processed

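The deposited file is a gene annotation for mouse (GTF), with start and end of exons and coding segments in bp, 1-based, and gene, transcript, start site and protein identifiers. The submitters' processing notes name the aligner TopHat2 (version 2.0.4) and the build mm10. From which release the gene models came is not stated in the labels. The file has 0 columns of sample values, so no expression test was made. Of 20508 symbols with coding segments, 97 on more than 1 chromosome or strand were left out. A gene was represented by the transcript with the longest span, ties going to the longer coding sequence, then more exons; 54 shorter genes were represented by a transcript with no coding segment. Coding length excludes the stop codon. Enclosed genes are symbols whose whole extent lies within the span. Members and gene lists were chosen with earlier results of these data known, and lists come from general knowledge. Genes named are the extremes of each measure, those next to 300000 bp, the up to 4 longest of a list, all of the leukocyte list and the genotype genes; some of these are not reported here, and others complete a count or a comparison and were chosen after their values were seen. GENCODE M21 and RefSeq tables gave sequences. The scripts were tested on simulated gene models. Python 3.11.15, numpy 2.4.6, pandas 2.3.3, scipy 1.17.1 and matplotlib 3.10.9 were used. Alternatives were other span limits, the span over all transcripts, another representing transcript and coding transcripts alone.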

Additional observations from a re-analysis of the deposited data

How the results depend on the processing

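No paired analysis was possible because no column of the file belongs to a sample; no replicate could be left out for the same reason. Of 40 planned values under alternatives, 30 stayed within 1.5 times (counts) or within the 95% binomial interval of the reported value. Some of these 30 could not move, as stated below. With a limit of 250000 bp the median intron share was 98.8% and the median longest intron 142 kb. With 500000 bp there were 183 genes, with a median intron share of 99.3%, a median longest intron of 242 kb and other genes inside 37.7% of spans. These follow from the change of limit. With the span taken over all transcripts of a gene there were 569 genes, with a median of 15 exons, 2385 coding bases, an intron share of 98.8% and a longest intron of 145 kb, since the representing transcript can then be shorter than the limit. Representing a gene by its longest coding sequence moved none of the 8 values beyond these bounds. Its count of genes could not change, because the span still came from the longest transcript. Using coding transcripts alone left all 8 values the same. The longest transcript lacked coding segments in 0 very long genes, so each kept its representing transcript and this alternative could not show dependence on it. With the GENCODE M21 spans of the same genes, an alternative chosen after seeing the data, the count of very long genes moved by over 1.5 times in 2 of the 34 lists, leucine-rich-repeat synaptic adhesion (3 against 1) and genes named Zfp (2 against 1). Several other lists rose by less and none fell. Phosphodiesterases had 6 against 4, protein kinase C and phospholipase C genes 6 against 4, GABA-A receptor subunits 3 against 2 and giant cytoskeletal linkers and ankyrins 11 against 8.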

Other observations

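The deposited gene models were set beside GENCODE M21, on the same assembly; this comparison was chosen after seeing the data. Of the 487 very long genes 483 were matched, 438 by symbol and 45 by RefSeq transcript, and 444 had a longest GENCODE transcript within 10% of the deposited span. The limit of 300000 bp was reached there by 481. Jazf1 missed it narrowly (299.8 kb), and Gm13152, matched as Zfp982, spanned 21.1 kb there against 338 kb here. The 4 unmatched genes were Klra22, Klra15, LOC100039810 and LOC100041256. Pcdha4-g, which enclosed the most genes, had a GENCODE model of the same 887 kb under the symbol Gm42416. With only the 481 genes, the median exon number was 17, the median coding length 2730 bases, and other genes lay inside 26.6% of spans.

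In 14 very long genes the longest GENCODE transcript was over 1.5 times the deposited span. Lsamp and Ptprd, neural adhesion and phosphatase genes, reached 2192 and 2073 kb there, against 613 and 653 kb here, and Immp2l 931 kb against 327 kb. Of the leukocyte list, Inpp4b spanned 782 kb against 407 kb. A further 53 coding genes were under 300000 bp in the deposited file and at or above it in GENCODE. Among them were the leukocyte genes Dock2 (288 kb here, 557 kb there) and Bach2 (169 kb and 347 kb), and Fgfr2 (104 kb and 2961 kb) had the longest GENCODE span of the 53. Provisional symbols (ending in Rik, or starting with Gm, LOC, BC, AW and the like) were carried by 18 of 487 very long genes (3.70%) and by 9.20% of shorter ones.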
